A study of Rattus norvegicus with 120 samples.

Results

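The acute response of the immature hippocampus to status epilepticus (SE) was measured 24 h after SE was induced at postnatal day 12 (P12), the infancy-onset group of the series. The comparison holds 17 of the 114 libraries with counts, 8 from infancy-onset SE rats and 9 from infancy-onset control rats, with 1 library per rat. They were chosen by the labels for onset age, stage and SE, and 10 SE and 10 control rats carry those labels, of which 2 and 1 are not used here. Of the 623 miRNAs in the table of the acute stage, 383 had more than 500 reads summed over its 35 libraries and were tested.

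The series follows hippocampal miRNAs after SE at P12 or at P60 (adult-onset), 24 h (acute), 1 week (latent) and 3 months (chronic) later. The methods of the study, written for its chronic-stage rats, describe male Wistar rats, all of which received LiCl on the day before the second injection. SE rats then received a single intraperitoneal dose of pilocarpine, which drives muscarinic acetylcholine receptors and thereby sets off lasting seizures, and control rats received saline. Paraldehyde, a sedative, followed once convulsive SE was under way, so the effects of SE, pilocarpine and paraldehyde cannot be told apart in this comparison. The labels name no litter and no batch, and the source tissue was hippocampus with all its cell types, so that fewer cells of a type and less miRNA per cell cannot be told apart.

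miRNAs are short RNAs cut from hairpin precursors. Each hairpin has a 5p and a 3p arm, and the mature strand guides silencing complexes to messenger RNAs that pair with its seed, the bases 2 to 8 from the 5′ end. miRNAs that share a seed can bind the same sites. In neurons, miR-132 and miR-212 are transcribed together in response to activity through the transcription factor CREB. miR-142 and miR-223 are made by blood cells and microglia, miR-155 is induced when myeloid cells are activated, and miR-21 is raised in many injured tissues, including by reactive astrocytes.

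Mature sequences from RefSeq (rat build GRCr8) matched 355 of the 383 miRNAs and all 19 that were called different between SE and control rats. The sequences below are those of the miRNAs on which the results turn, written 5′ to 3′ with the seed in capitals and grouped by seed and by hairpin. The first group holds both arms of miR-132 and miR-212, in which the 3p arms share the seed AACAGUC and the 5p arms differ in theirs.
miR-132-3p: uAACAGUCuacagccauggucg
miR-212-3p: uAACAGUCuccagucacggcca
miR-132-5p: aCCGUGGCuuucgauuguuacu
miR-212-5p: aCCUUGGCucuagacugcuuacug

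The second group holds miRNAs of myeloid cells and injury, each with a seed that none of the other matched miRNAs shares.
miR-155-5p: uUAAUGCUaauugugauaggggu
miR-142-3p: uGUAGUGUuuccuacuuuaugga
miR-21-5p: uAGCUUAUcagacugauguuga

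The third group is the miR-29 family, 3 members with 1 seed, of which miR-29a-3p and miR-29c-3p differ at 1 base.
miR-29a-3p: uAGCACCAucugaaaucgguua
miR-29b-3p: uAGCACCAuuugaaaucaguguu
miR-29c-3p: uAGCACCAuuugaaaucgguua

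The fourth group is the pair miR-221-3p and miR-222-3p, which share a seed, and of which miR-222-3p fell in SE rats.
miR-221-3p: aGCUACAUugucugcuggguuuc
miR-222-3p: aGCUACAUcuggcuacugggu

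In GRCr8 the miR-132 hairpin lies at chr10:60522033-60522133 on the plus strand, and miR-212-3p starts 222 bases before it on the same strand. The miR-155 hairpin lies at chr11:37261114-37261178 (plus), miR-142 at chr10:73055104-73055190 (plus, within the span of the protein-coding gene Tspoap1) and miR-21 at chr10:71902600-71902691 (minus). miR-29a lies at chr4:60617955-60618042 (minus), with the start of the Mir29b1 hairpin 379 bases away, while miR-29b-3p is also encoded by Mir29b2 at chr13:109098831-109098911 (plus), 528 bases from miR-29c. miR-222 lies at chrX:6022621-6022723 (plus), 561 bases from miR-221. The 19 called miRNAs carried 17 different seeds, and the 355 matched miRNAs carried 290.

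Reads assigned to miRNAs ranged from 503554 to 2266560 (median 971212) in SE libraries and from 309975 to 1655679 (median 1094985) in control libraries, and the means did not differ beyond their spread (two-sided exact permutation test, p = 0.661). miR-9a-5p was the most abundant miRNA in every library, with 25.5 to 36.2% of reads in SE rats and 24.5 to 34.2% in control rats. The rank correlation between libraries ranged from 0.936 to 0.991. The neuronal miR-124-3p was present in every library, with 4691 to 23114 raw reads in SE rats and 5233 to 11997 in control rats, whereas the liver miR-122-5p had at most 24 reads in an SE library and 19 in a control library. Markers of other tissues were present in every library. The endocrine miR-375-3p had 22 to 409 raw reads in SE and 33 to 259 in control libraries. The muscle miR-206-3p had 17 to 49 in SE and 12 to 47 in control libraries, and miR-1-3p had 7 to 28 in SE and 2 to 45 in control libraries. The control library 1-S32 stood apart. It had the fewest reads and the highest levels of miRNAs of choroid plexus and ciliated ependyma, with 8004 counts scaled to library size (CPM, reads per 1e6) of miR-204-5p against 487 to 886 CPM in the other 16 libraries, 3465 CPM of miR-1298 against 77.6 to 335 CPM and 2386 CPM of miR-34c-5p against 124 to 559 CPM. The log2 fold change of miR-1298 (SE over control) was −1.68 ± 0.69 with this library (adjusted p = 0.22) and −0.01 ± 0.29 without it (adjusted p = 0.99). Calls of the miRNAs named here that change without it are given beside their values.

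SE rats differed from control rats at 19 miRNAs (adjusted p under 0.05, edgeR quasi-likelihood test), 14 higher and 5 lower, which is 4.96% of the 383 tested (3.66% higher and 1.31% lower). The median log2 fold change over all 383 was 0.00. At an unadjusted p under 0.05, 61 miRNAs differed, 35 higher and 26 lower. Under the thresholds of the study, an unadjusted p under 0.05 and a fold change of at least 1.4, 32 differed (8.36%), 22 higher and 10 lower. The increases were larger than the decreases, with log2 fold changes of up to 1.76 among the increases and none beyond −0.55 among the decreases. SE and control libraries did not overlap at 4 miRNAs (1.04%), miR-132-5p, miR-155-5p, miR-212-3p and miR-212-5p.

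**Figure D1:**
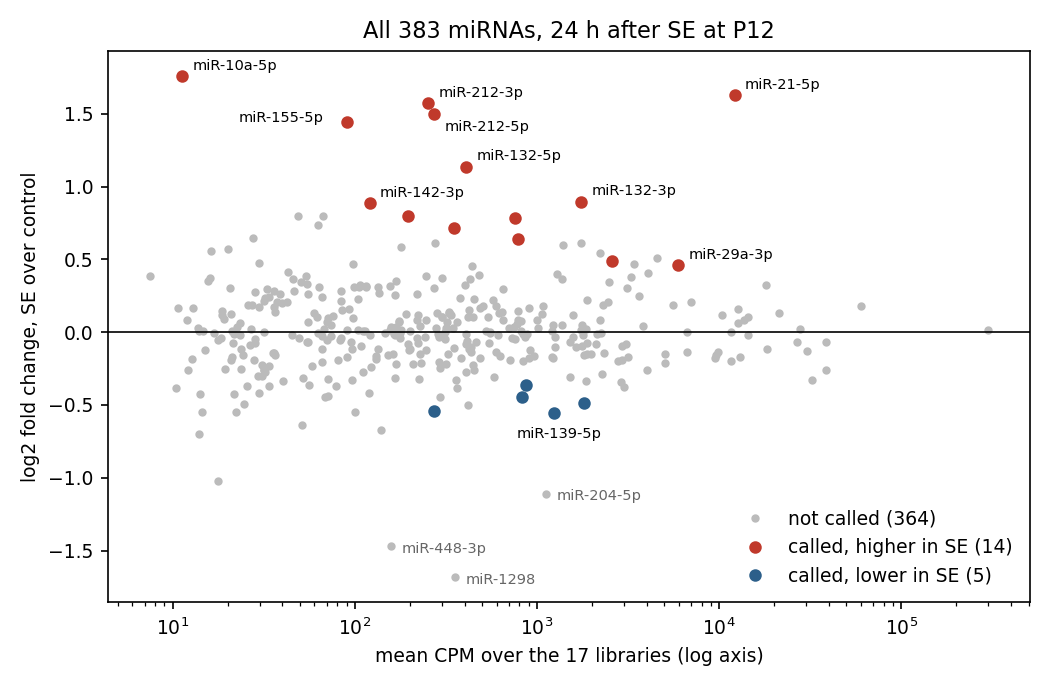
Log2 fold change (SE over control) against the mean CPM over the 17 libraries (log axis) for each of the 383 miRNAs, with red points for the 14 called higher, blue points for the 5 called lower and gray points for the rest. The called increases reach 1.76 and the called decreases −0.55, while the lowest gray points, miR-1298, miR-448-3p and miR-204-5p, rest on the control library 1-S32.

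The calls depended on single rats to different degrees. Under 25 alternatives, 17 of which left out 1 library, 9 of the 19 calls held throughout, namely both arms of miR-132 and of miR-212, miR-155-5p, miR-21-5p, miR-142-3p, miR-29a-3p and miR-29b-3p. Without the control library 1-S32 there were 31 calls, the same 19 among them. Without the control library 1-S37 there were 9 calls, without the control library 1-S39 there were 10, and without the SE library 1-S23 there were 12.

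All 4 mature forms of the miR-132/212 locus rose in SE rats. miR-212-3p had 202, 414 and 552 CPM (lowest, median and highest) in SE rats, against 90.5, 117 and 171 CPM in control rats. Every SE library lay above every control library, and the log2 fold change was 1.57 ± 0.19 (standard error, n = 8 and 9, adjusted p = 4.6e-06). The opposite arm miR-212-5p had 264, 378 and 551 CPM in SE rats, against 92.4, 155 and 219 CPM in control rats.

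The groups were again separate, with a log2 fold change of 1.50 ± 0.19 (adjusted p = 7.6e-06). miR-132-5p had 426, 589 and 699 CPM in SE rats, against 206, 250 and 362 CPM in control rats, also without overlap (1.14 ± 0.13, adjusted p = 4.0e-06). miR-132-3p, which has the seed of miR-212-3p and is the most abundant of the 4, had 1535, 2467 and 2850 CPM in SE rats, against 834, 1241 and 1656 CPM in control rats. Here 7 of 8 SE libraries lay above all control libraries, and the log2 fold change was 0.90 ± 0.14 (adjusted p = 0.00013). The increase was thus larger for miR-212 than for miR-132 in both arms, although this difference between miRNAs was not tested. The ratio of miR-132-5p to miR-132-3p averaged 0.251 in SE rats and 0.215 in control rats (two-sided exact permutation test, p = 0.0704), and that of miR-212-5p to miR-212-3p averaged 1.11 in SE rats and 1.17 in control rats (p = 0.831 by the same exact test).

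**Figure D2:**
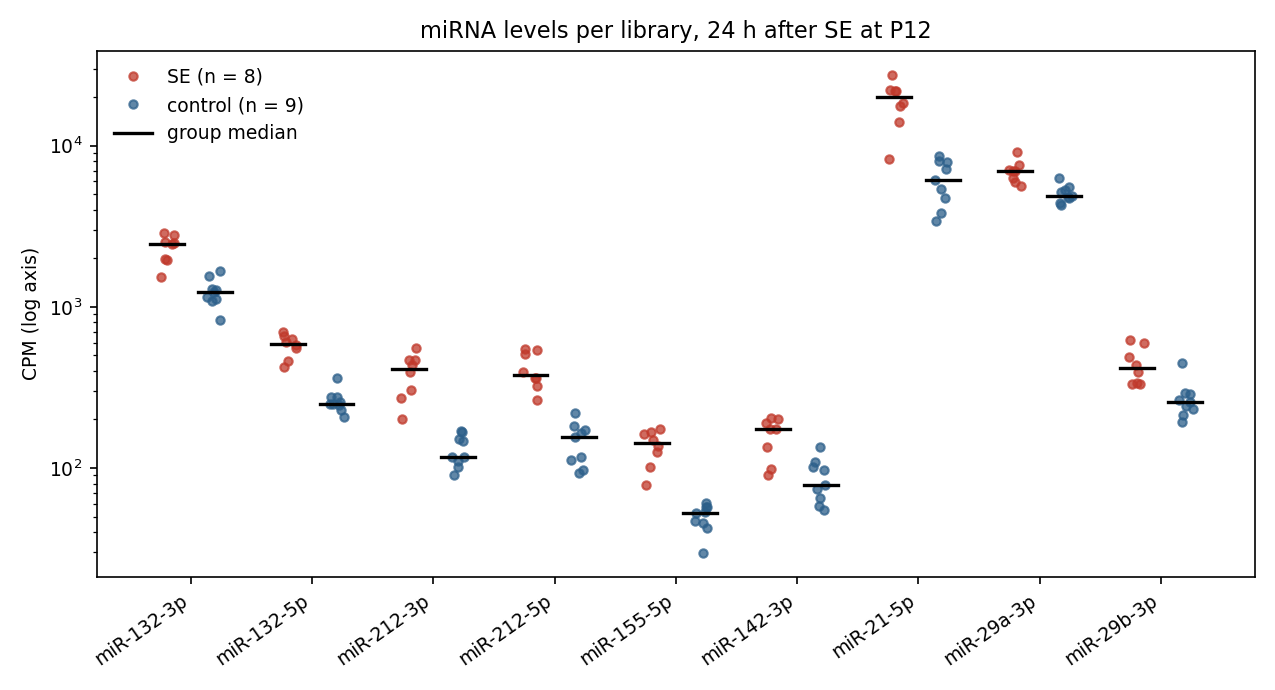
CPM in each library (log axis) for the 9 miRNAs whose call held in every alternative, with SE libraries in red on the left of each pair, control libraries in blue on the right, and bars at the group medians. miR-212-3p, miR-212-5p, miR-132-5p and miR-155-5p show no overlap between the groups, and 1 SE library of miR-21-5p, at 8226 CPM, lies among the controls.

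The other measured miRNAs listed here as regulated by neuronal activity, from miR-134, miR-188 and miR-485, did not pass the test. Of 9 measured members of this list, the 4 forms above rose and the other 5 were not called. The median of the list was 0.21, against 0.00 over all miRNAs. That median is the value of miR-188-5p (0.21 ± 0.21, adjusted p = 0.67), and 4 of the 9 members come from 1 locus. A shift of the list as a whole was not tested. miR-134-5p, which limits dendritic spine size through Limk1, had a log2 fold change of 0.08 ± 0.11 (adjusted p = 0.77), and miR-485-3p, from the same imprinted cluster, had −0.33 ± 0.19 (adjusted p = 0.43).

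Of 7 measured miRNAs of microglia and myeloid cells, miR-155-5p and miR-142-3p rose in SE rats and miR-342-3p fell, and of these 3 miR-155-5p changed most. It had 78.8, 144 and 175 CPM in SE rats, against 29.8, 52.7 and 60.3 CPM in control rats, which came from 65 to 290 raw reads in SE libraries and 10 to 95 in control libraries. The groups were separate, with a log2 fold change of 1.45 ± 0.17 (adjusted p = 4.0e-06), whereas the opposite arm miR-155-3p had only 8 reads in the whole acute table. miR-142-3p had 90.4, 175 and 204 CPM in SE rats, against 54.9, 78.5 and 136 CPM in control rats. All 8 SE libraries exceeded the control median and 6 exceeded every control, for a log2 fold change of 0.89 ± 0.20 (adjusted p = 0.011).

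Its opposite arm miR-142-5p was not called, at 0.73 ± 0.27 (adjusted p = 0.14), but passed without the control library 1-S32 (0.86 ± 0.25, adjusted p = 0.037). miR-223-3p, the miRNA of granulocytes and monocytes, had 37.8, 53.9 and 143 CPM in SE rats and 25.7, 34.1 and 58.9 CPM in control rats. Its log2 fold change of 0.80 ± 0.24 fell just short of the threshold (adjusted p = 0.054), and 1 SE library, 1-S25, stood far above the others. Without that library the value was 0.52 ± 0.18 (adjusted p = 0.12), and over all alternatives the adjusted p ranged from 0.026 to 0.27. miR-342-3p, which is expressed in myeloid cells and neurons from a hairpin within the span of Evl, went the other way, with 643, 711 and 723 CPM in SE rats against 698, 905 and 1278 CPM in control rats (−0.44 ± 0.11, adjusted p = 0.025). Across the microglia and myeloid list, 2 of 7 measured members rose, 1 fell and 4 were not called, with a median of 0.73. The summed level of the list, in which miR-342-3p is the most abundant member, ranged from 1378 to 1593 CPM in SE rats and from 1348 to 1901 CPM in control rats (two-sided exact permutation test, p = 0.385).

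miR-21-5p showed the largest change among abundant miRNAs. It had 8226, 20066 and 27559 CPM in SE rats, against 3395, 6143 and 8608 CPM in control rats, and 7 of 8 SE libraries lay above all controls. The log2 fold change was 1.63 ± 0.21 (adjusted p = 1.3e-05). Its opposite arm miR-21-3p had 215 reads in the acute table, below the read minimum.

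Most of the inflammation and reactive glia list was not called. Of 6 measured members, miR-21-5p and miR-155-5p, which is also in the myeloid list, rose and 4 were not called, with a list median of 0.21. miR-146a-5p, which is induced by NF-κB and restrains Toll-like receptor signaling, had 217, 276 and 363 CPM in SE rats and 104, 301 and 371 CPM in control rats. The groups covered the same range, and the log2 fold change was 0.03 ± 0.18 (adjusted p = 0.99). Its paralog miR-146b-5p had 0.12 ± 0.12 (adjusted p = 0.67), and miR-203a-3p and miR-31a-5p had 0.26 ± 0.20 and 0.16 ± 0.20 (adjusted p = 0.52 and 0.72).

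The same SE libraries were often at the ends of the range. Among the 9 calls that held in every alternative, the SE library 1-S24 was the lowest or next to lowest of the 8 SE libraries for 7 miRNAs and 1-S28 for 6, while 1-S23 was the highest or next to highest for 7. miR-142-3p and miR-29b-3p had another order, with their lowest SE value in 1-S29.

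The miR-29 family, known for repressing collagens and DNA methyltransferases and for its increase as the brain matures, rose in 2 of its 3 main forms. miR-29a-3p had 5624, 6996 and 9065 CPM in SE rats, against 4298, 4880 and 6277 CPM in control rats, with 6 of 8 SE libraries above all controls (0.46 ± 0.10, adjusted p = 0.0095). miR-29b-3p had 330, 416 and 623 CPM in SE rats, against 193, 256 and 448 CPM in control rats. All 8 SE libraries exceeded the control median and 3 exceeded all controls, the control library 1-S34 being the highest (0.72 ± 0.17, adjusted p = 0.019).

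miR-29c-3p, with the same seed, had 0.15 ± 0.11 (adjusted p = 0.54). Because it differs from miR-29a-3p at 1 base and the authors allowed 1 mismatch, reads of the pair may have been exchanged. miR-29b-5p, the opposite arm from the Mir29b2 hairpin, had the opposite sign to miR-29b-3p, at −0.44 ± 0.15 (adjusted p = 0.095). The arm miR-29b-1-5p from the other hairpin had 5 reads in the acute table. Over the 6 measured members of the family, 2 rose and 4 were not called, with a median of 0.20.

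In the miR-23a/27a/24-2 cluster on chromosome 19, known from muscle, blood and vessels, miR-27a-3p and miR-24-2-5p rose. miR-27a-3p had 744, 1017 and 1138 CPM in SE rats, against 398, 572 and 1130 CPM in control rats (0.64 ± 0.17, adjusted p = 0.025). miR-24-2-5p had 216, 241 and 329 CPM in SE rats, against 55.6, 141 and 331 CPM in control rats (0.80 ± 0.22, adjusted p = 0.039). All SE libraries lay above the control median for both, but the highest control, 1-S32, lay at the top of the SE range in each, and over the alternatives the adjusted p reached 0.054 for miR-27a-3p, whose call was lost without 1-S37, 1-S39, 1-S23 or 1-S25, and 0.082 for miR-24-2-5p, whose call was lost in 13 of 17 fits without 1 library.

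The remaining members of this cluster, miR-23a-3p at 0.60 ± 0.18 (adjusted p = 0.054) and miR-24-3p at 0.51 ± 0.27 (adjusted p = 0.36), were not called with all libraries. Without 1-S32 both passed, at 0.74 ± 0.15 (adjusted p = 0.0028) and 0.80 ± 0.21 (adjusted p = 0.018). miR-24-3p is also made from the paralogous cluster, and miR-27b-3p, the paralog of miR-27a-3p with 1 different base, had 0.30 ± 0.14 (adjusted p = 0.30). Of the 8 measured members of both clusters, 7 had positive values and the median was 0.40.

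Among 14 neuron-enriched miRNAs, 2 rose and 12 were not called, with a median of 0.07. Both calls came from miR-129, a miRNA enriched in brain. miR-129-5p had 2051, 3060 and 3935 CPM in SE rats, against 1482, 2126 and 3050 CPM in control rats (0.49 ± 0.14, adjusted p = 0.039). miR-129-2-3p had 545, 794 and 1658 CPM in SE rats, against 364, 554 and 944 CPM in control rats (0.79 ± 0.23, adjusted p = 0.047). For each, 7 of 8 SE libraries exceeded the control median, the groups overlapped, and the adjusted p reached 0.082 and 0.094 over the alternatives. miR-129-1-3p, from the other miR-129 hairpin, has the sequence of miR-129-2-3p over their shared length, so that reads of the 2 may have been exchanged, and had 0.61 ± 0.28 (adjusted p = 0.30). The abundant neuronal miRNAs miR-128-3p and miR-138-5p had −0.33 ± 0.12 (adjusted p = 0.15) and −0.29 ± 0.12 (adjusted p = 0.22). miR-128-3p passed without the control library 1-S32 (−0.37 ± 0.11, adjusted p = 0.049) and without the SE library 1-S22 (−0.41 ± 0.11, adjusted p = 0.035).

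The 5 miRNAs that fell did so by a small amount, with every SE library below the control median. miR-139-5p, whose hairpin lies within the span of Pde2a, had 760, 923 and 1356 CPM in SE rats, against 1070, 1410 and 1788 CPM in control rats (−0.55 ± 0.14, adjusted p = 0.024). Its opposite arm miR-139-3p had −0.44 ± 0.19 (adjusted p = 0.22). miR-222-3p, which with miR-221-3p targets the cell-cycle inhibitor Cdkn1b, had 922, 1591 and 1735 CPM in SE rats, against 1691, 2017 and 2946 CPM in control rats (−0.49 ± 0.13, adjusted p = 0.036).

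Here 7 of 8 SE libraries lay below all controls. miR-221-3p, with the same seed and 561 bases away, had a value of −0.38 ± 0.13 that was not called (adjusted p = 0.11), also with every SE library below the control median. miR-330-3p, within the span of Eml2, had 164, 202 and 301 CPM in SE rats, against 244, 306 and 399 CPM in control rats (−0.54 ± 0.14, adjusted p = 0.025). miR-361-5p, within the span of Chm, had 664, 731 and 943 CPM in SE rats, against 839, 975 and 1217 CPM in control rats (−0.37 ± 0.10, adjusted p = 0.039). For miR-330-3p 6 and for miR-361-5p 7 of 8 SE libraries lay below all controls. All 5 decreases were lost without the control library 1-S37. Of the 5, miR-139-5p alone stayed called without 1-S39 or 1-S40, 2 stayed without the SE library 1-S22, and 3 stayed when 1 of the SE libraries 1-S23, 1-S24, 1-S25, 1-S26 or 1-S29 was left out. Over the alternatives the adjusted p reached 0.079 for miR-139-5p, 0.11 for miR-342-3p, 0.066 for miR-330-3p, 0.077 for miR-222-3p and 0.076 for miR-361-5p.

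miR-10a-5p had the largest log2 fold change of all calls on the fewest reads. This miRNA of the Hox gene clusters had 4.66, 18.1 and 31.4 CPM in SE rats, against 0.844, 3.04 and 16.1 CPM in control rats, from 3 to 68 raw reads in SE libraries and 1 to 16 in control libraries. The log2 fold change was 1.76 ± 0.49 (adjusted p = 0.039), 5 of 8 SE libraries exceeded all controls, and the call was lost in 13 of 25 alternatives. It was the only call under 50 CPM in both groups.

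Opposite arms of 1 hairpin mostly had the same sign. Counted from each called arm, 15 pairs had the other arm above the read minimum, and 13 of them had the same sign in both arms. The exceptions were miR-29b and miR-330, where miR-330-5p had 0.12 ± 0.13 (adjusted p = 0.67). The hairpins of miR-132, miR-212 and miR-129-2 enter this count from both arms, and arms of 1 precursor are not independent. The same-sign pairs include miR-361, where miR-361-3p had −0.005 ± 0.13. The share of same-sign pairs over all hairpins was not counted.

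Several miRNAs missed the threshold by little. miR-7a-2-3p had −0.55 ± 0.16 (adjusted p = 0.054), miR-365-3p 0.59 ± 0.18 (adjusted p = 0.054) and the abundant miR-26a-5p −0.26 ± 0.08 (adjusted p = 0.056), the first 2 of which were chosen after their values were seen. Without the control library 1-S32, miR-7a-2-3p and miR-365-3p passed (adjusted p = 0.046 and 0.0094), as did miR-22-3p, at 0.86 ± 0.18 (adjusted p = 0.0033) against 0.55 ± 0.26 (adjusted p = 0.30) with it, and miR-135b-5p, at 0.71 ± 0.22 (adjusted p = 0.049) against 0.61 ± 0.22 (adjusted p = 0.14). Of the 12 miRNAs called without 1-S32 but not with all libraries, let-7i-3p (0.77 ± 0.20, adjusted p = 0.018), miR-32-5p (0.70 ± 0.21, adjusted p = 0.041) and miR-872-5p (0.65 ± 0.20, adjusted p = 0.049) were also chosen after their values were seen. With all libraries these 3 had 0.31 ± 0.33 (adjusted p = 0.67), 0.65 ± 0.20 (adjusted p = 0.063) and 0.39 ± 0.26 (adjusted p = 0.46).

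Large families and markers of other cells contained no call with all libraries. None of 73 measured miRNAs of the imprinted Dlk1-Dio3 cluster, which is expressed in neurons, was called, and their median was 0.00, the highest of the named members being miR-379-5p at 0.47 ± 0.16 (adjusted p = 0.10). Without 1-S32 its member miR-666-3p, chosen after its values were seen, was called at 0.43 ± 0.12 (adjusted p = 0.033), against 0.30 ± 0.15 (adjusted p = 0.33) with it. Nor was any of 13 miRNAs of miR-17-92 and its paralogs, 9 of let-7, 10 of miR-30, 7 of miR-181 or 6 of miR-15/16. With 4.96% of all 383 miRNAs called, lists of 13 miRNAs or fewer would often hold no call. This does not extend to the 73 miRNAs of the Dlk1-Dio3 cluster. The lists of oligodendrocytes (4 measured), endothelium and vessel wall (5) and erythroid cells (4) also had no call, with medians of −0.03, 0.08 and 0.05. Their summed levels were 759 to 2022 CPM in SE rats and 660 to 2202 CPM in control rats for oligodendrocytes, 18717 to 28154 CPM in SE rats and 11529 to 33706 CPM in control rats for the vessel list, and 487 to 937 CPM in SE rats and 527 to 1002 CPM in control rats for erythroid cells, with exact permutation p values of 0.591, 0.524 and 0.665 (two-sided). The summed choroid plexus and ependyma list, with 2 of 12 entries measured and miR-211-5p at 0 in 1 SE and 3 control libraries, ranged from 727 to 1391 CPM in SE rats and from 858 to 1242 CPM in control rats without 1-S32, which had 8961 CPM.

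**Figure D3:**
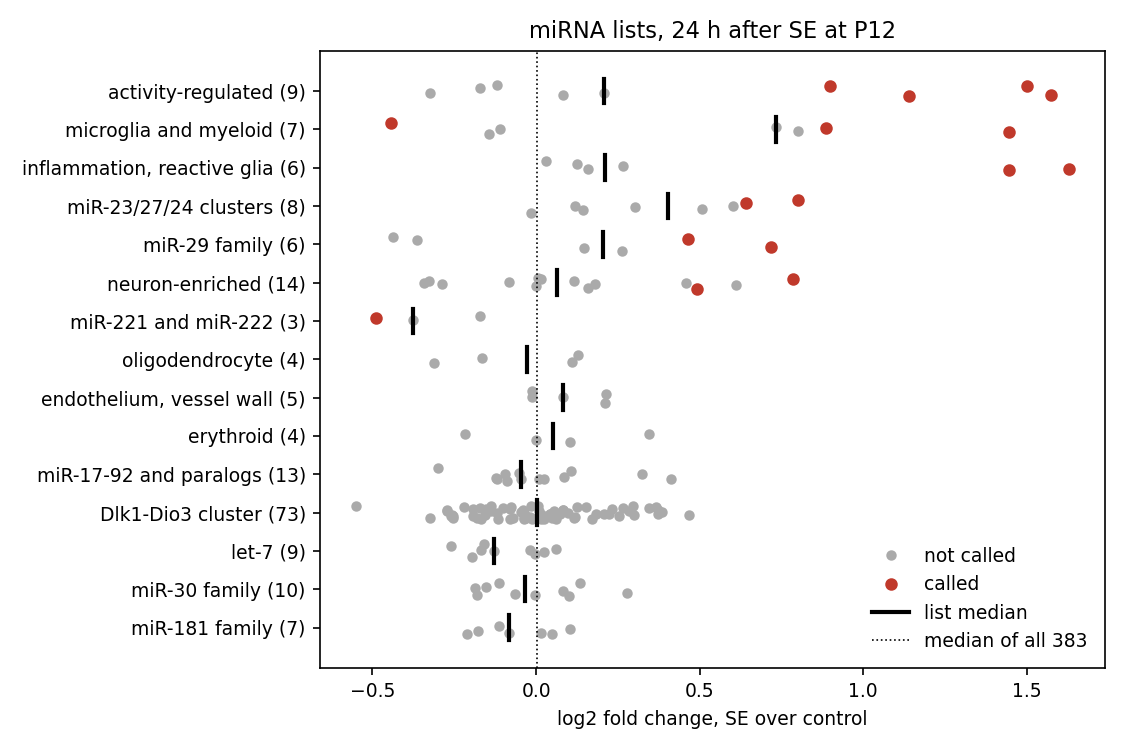
Log2 fold change (SE over control) of each measured miRNA in 15 lists, with red points for called miRNAs, gray points for the others, black bars at the list medians and a dotted line at the median of all 383. Calls fall in 7 of the lists shown, and the 73 Dlk1-Dio3 miRNAs center on 0.00 without a call.

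The same contrast in adult-onset rats (9 SE, 9 control) asks whether the acute change depends on the age of onset. It gave 14 calls (3.66% of 383), 11 higher and 3 lower. Adult-onset SE libraries had 434419 to 1408898 reads and adult-onset control libraries 507283 to 4026890. Most of these control libraries had more reads than any of the SE libraries. Neither the adult-onset calls nor the test between onset ages was adjusted for this difference in depth. There were 7 miRNAs called at both ages, all higher in SE rats, namely both arms of miR-132 and miR-212, miR-155-5p, miR-142-3p and miR-21-5p, which are 36.8% of the infancy-onset calls and 50% of the adult-onset calls. The log2 fold changes of miR-132-3p were 0.90 ± 0.14 in infancy-onset and 0.85 ± 0.19 in adult-onset rats, and those of miR-142-3p were 0.89 ± 0.20 in infancy-onset and 0.89 ± 0.21 in adult-onset rats.

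A test of the difference between the onset ages called 1 of 383 miRNAs (0.261%), and 50 had an unadjusted p under 0.05. The call was miR-29a-3p, at 0.46 ± 0.10 in infancy-onset and −0.06 ± 0.09 in adult-onset rats, a difference of 0.55 ± 0.13 (adjusted p = 0.035). It was kept in 14 of 35 fits that left out 1 library. The fold changes start from unlike levels, with a mean of 5037 CPM of miR-29a-3p in infancy-onset and 42712 CPM in adult-onset control rats. Differences in the myeloid miRNAs did not pass. miR-155-5p had 1.45 ± 0.17 in infancy-onset and 2.99 ± 0.59 in adult-onset rats (difference −1.54 ± 0.63, adjusted p = 0.27), and miR-223-3p had 0.80 ± 0.24 in infancy-onset (0.52 ± 0.18 without 1-S25) and 2.39 ± 0.41 in adult-onset rats (difference −1.56 ± 0.50, adjusted p = 0.27). Adult-onset libraries were also uneven. For miR-223-3p the adult-onset SE mean was 169.76 CPM with a standard deviation of 182.06 CPM. For miR-155-5p the adult-onset control mean was 17.81 CPM with a standard deviation of 32.98 CPM. In the other acute groups the standard deviation of both miRNAs was below the mean. The adult-onset values are given with all libraries. Of the decreases, miR-139-5p, miR-342-3p and miR-361-5p had 0.06 ± 0.18, −0.01 ± 0.15 and 0.08 ± 0.10 in adult-onset rats, with differences that also did not pass (adjusted p = 0.27, 0.39 and 0.27). miR-222-3p had −0.49 ± 0.13 in infancy-onset and −0.46 ± 0.16 in adult-onset rats, and miR-221-3p had −0.38 ± 0.13 in infancy-onset and −0.60 ± 0.15 in adult-onset rats, where it was called (adjusted p = 0.025).

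**Figure D4:**
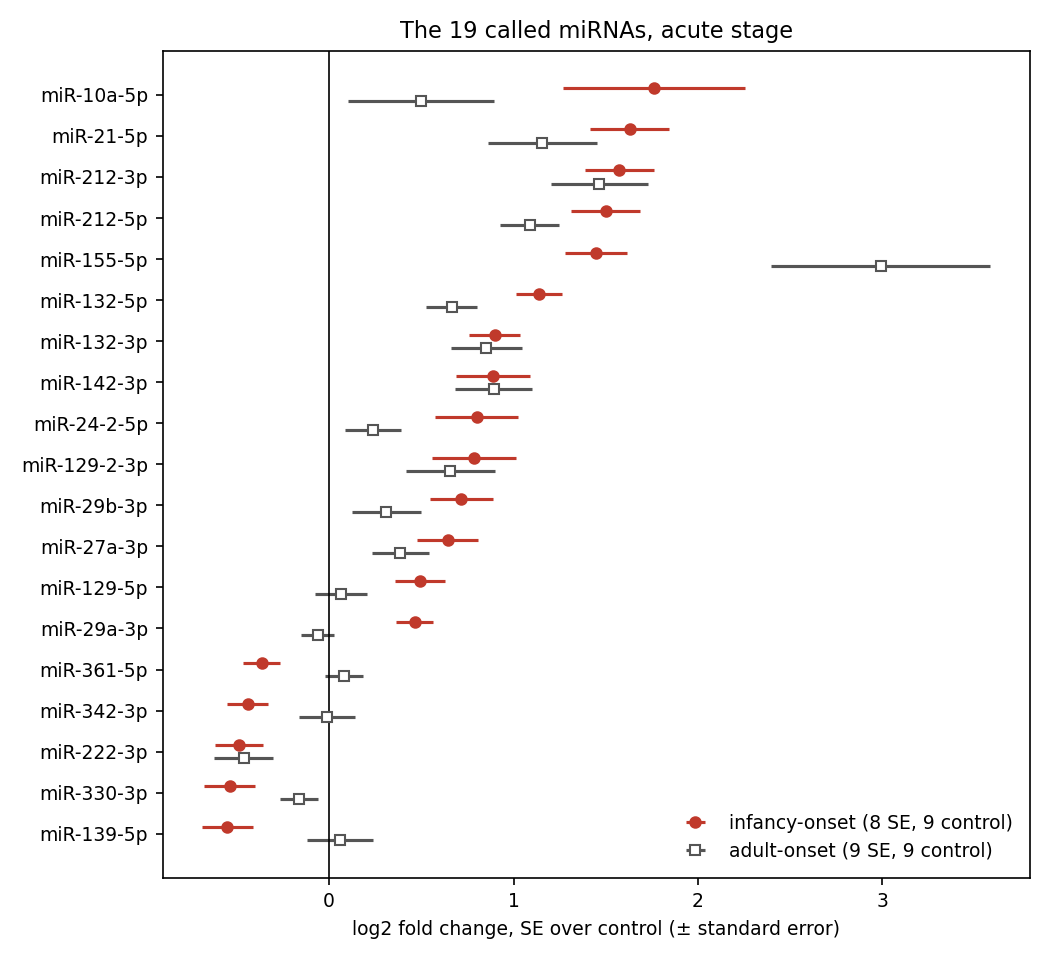
Log2 fold change (SE over control, ± standard error) of the 19 called miRNAs in infancy-onset rats (red circles, upper) and in adult-onset rats (open squares, lower) of the acute stage. miR-132-3p and miR-142-3p have like values at both ages, miR-155-5p has 1.45 in infancy-onset and 2.99 in adult-onset rats, and miR-29a-3p is the only miRNA whose difference between the ages passed the test.

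Later stages of infancy-onset rats were measured in other animals with their own controls and were normalized separately, so values are set side by side and differences between stages were not tested. At 1 week 2 of 406 miRNAs were called (0.493%), with 58 at an unadjusted p under 0.05, and at 3 months edgeR called 0 of 442 (0%), with 23 at an unadjusted p under 0.05. The only miRNA called at both 24 h and 1 week was miR-212-3p, with 1.57 ± 0.19 in the acute, 0.46 ± 0.10 (adjusted p = 0.042) in the latent and −0.23 ± 0.14 (adjusted p = 0.85) in the chronic stage. The other call at 1 week, the erythroid miR-144-5p, was lower in SE rats (−0.96 ± 0.22, adjusted p = 0.042).

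miR-132-3p had 0.90 ± 0.14, 0.37 ± 0.11 (adjusted p = 0.091) and 0.08 ± 0.19 (adjusted p = 0.99) at the acute, latent and chronic stages. miR-21-5p had 1.63 ± 0.21, 0.25 ± 0.09 (adjusted p = 0.15) and 0.39 ± 0.16 (adjusted p = 0.76) at the same stages. miR-155-5p had 1.45 ± 0.17, 0.33 ± 0.19 (adjusted p = 0.48) and 0.72 ± 0.37 (adjusted p = 0.78). Its chronic value rests on low levels, with means of 6.06 CPM in SE and 3.97 CPM in control rats. At the acute stage the means were 137 CPM in SE and 49.5 CPM in control rats. miR-142-3p and miR-29b-3p had negative values at 1 week, −0.32 ± 0.14 and −0.26 ± 0.14 (adjusted p = 0.31 and 0.41). Of the 14 miRNAs that rose at 24 h, 11 had positive values at 1 week and 9 at 3 months, and of the 5 that fell, 3 had negative values at 1 week and all 5 at 3 months. These counts were not set against the share of positive values over all miRNAs of each stage. Both arms of miR-132 and miR-212 are among the 14, so the members are not independent. Whether the acute change lasted was not tested by these counts.

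**Figure D5:**
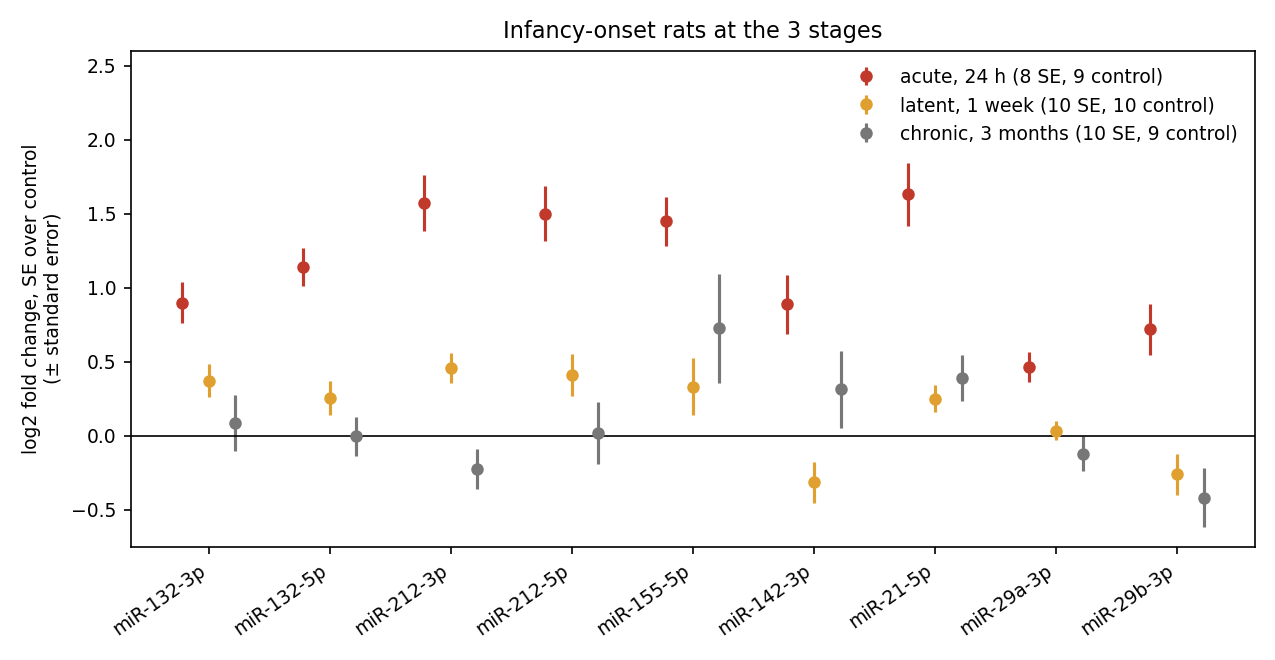
Log2 fold change (SE over control, ± standard error) in infancy-onset rats at the acute (24 h), latent (1 week) and chronic (3 months) stage for the 9 miRNAs whose acute call held in every alternative. All 9 acute values lie between 0.46 and 1.63, and miR-212-3p is the only one also called at 1 week, at 0.46.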

How the data were processed

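Rat small RNA libraries (NEXTflex kit) were sequenced on a NextSeq 500. The authors trimmed adapters with Kraken and Cutadapt and assigned reads to miRBase with seqBuster, allowing 1 mismatch; these steps are stated for the chronic rats. The deposited table holds raw read counts and a signal, in which the authors scaled each library's reads by its DESeq2 median-of-ratios factor over the acute table (DESeq2 1.16.1 per the submitters' processing notes). Because reads are counted per mature miRNA, near-identical miRNAs may exchange reads.

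Counts were tested in R 4.3.3 with edgeR 4.0.16 (quasi-likelihood F test, TMM scaling, Benjamini-Hochberg adjustment over all 383 miRNAs), with the 2 groups only and no covariate. A call is an adjusted p under 0.05. CPM is TMM-scaled, and log2 fold changes are those of the edgeR fit at its default prior count. Onset ages were compared by an interaction term over the 4 acute groups. On simulated counts for this comparison, 53 of 100 miRNAs changed by 0.5 (log2), 92 of 100 changed by 1 and 3 of 183 unchanged were called. The simulation changed a much larger share of miRNAs than the 4.96% called in the data. It also took the spread from control libraries only. Its detection rates may therefore be higher than those in the data. The edgeR p values reflect the spread between libraries together with counting error, which weighs most for miRNAs with few reads. With 1 library per rat, differences between rats and between library preparations cannot be told apart.

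Alternatives were RLE factors, DESeq2 1.42.0, limma 3.58.1 (voom with sample weights, and trend on log2 normalized reads plus 1), other read minimums, a fit of 4 groups, log10 reads as a covariate and leaving out each library. miRNAs were named by rule: the 12 largest calls each way with at least 50 CPM in a group, 4 of lowest p per list, all of the activity, myeloid and inflammation lists, their other arms, the 5 most abundant and the leading interactions. Lists, members and rules were chosen with earlier results of these data known. Sequences and positions are from RefSeq (GRCr8). Python 3.11.15, SciPy 1.17.1 and matplotlib 3.10.9 were used.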

Additional observations from a re-analysis of the deposited data

Results flagged for a closer look

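Of 104 groups of libraries checked (52 miRNAs in SE and in control rats), 12 had 1 library far from the rest of its group, and 8 of the 12 were the control library 1-S32. Chance flags about 1 in 20 groups, but that rate is for independent groups and is no yardstick here. The groups share the same libraries, and some of the miRNAs were included because their calls change without 1-S32. That library had the highest control level of miR-204-5p (8004 CPM, the other controls 487 to 840), miR-1298 (3465 CPM, the others 82.9 to 252), miR-448-3p (1288 CPM, the others 42.6 to 195), miR-135a-5p (6054 CPM, the others 2551 to 3692), let-7i-3p (319 CPM, the others 29.9 to 82.5) and miR-23a-3p (1992 CPM, the others 680 to 1163). It had the lowest control level of miR-155-5p (29.8 CPM, the others 42.3 to 60.3) and of miR-146a-5p (104 CPM, the others 209 to 371). With it, the log2 fold change of miR-1298 was −1.68 and without it −0.01, that of miR-448-3p was −1.47 and without it −0.27, and that of miR-204-5p was −1.11 and without it −0.0049. miR-135a-5p and let-7i-3p were chosen after their values were seen.

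Among the other controls, 1-S34 was the highest for miR-29b-3p (448 CPM, the others 193 to 292) and 1-S37 for miR-7a-2-3p (185 CPM, the others 100 to 129). Among SE libraries, 1-S24 was the lowest for miR-222-3p (922 CPM, the others 1291 to 1735) and 1-S25 the highest for miR-223-3p (143 CPM, the others 37.8 to 64.8).

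The log2 fold change of miR-29a-3p was higher by 0.55 in infancy-onset than in adult-onset rats, a difference that passed the interaction test. Its mean level in control rats was 5037 CPM in infancy-onset and 42712 CPM in adult-onset rats.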

How the results depend on the processing

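Of the 19 calls, 9 held under all 25 alternatives and none changed direction. The call of miR-139-5p was lost in 2, miR-27a-3p in 4, miR-330-3p and miR-342-3p in 6, miR-222-3p in 7, miR-361-5p in 11, miR-129-5p in 12, miR-10a-5p and miR-24-2-5p in 13 and miR-129-2-3p in 15. The cause was not tested. The number of calls was 37 with voom sample weights (28 higher, 9 lower), and 16 to 25 under the other settings that kept every library. With DESeq2 8 miRNAs were lower, and with 4 groups in the fit 2 were. Leaving out 1 library gave 9 to 31 calls, 9 to 24 of them higher and 0 to 7 lower. Under the thresholds of the study, 57 miRNAs passed with no read minimum. The interaction had 0 calls with RLE factors or a minimum of 10 CPM in 8 libraries, 4 with DESeq2 and 0 to 2 without 1 library. miR-146a-5p had a log2 fold change of −0.098 with voom sample weights and between −0.067 and 0.095 without 1 library (−0.067 without the control library 1-S32). No paired analysis was possible because the replicate labels are not shared between groups.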
